A study of Mus musculus with 4 samples.

Results

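The transcription factor NRF2 (gene Nfe2l2), its 2 best known negative regulators KEAP1 and BACH1, and 7 genes of the antioxidant response that they govern or work beside were followed in mouse regulatory T cells given iron. The 10 genes, and the lists of related genes below, were chosen by function but with earlier results of these data known. The 10 are Nfe2l2, Keap1, Bach1, Nqo1, Sqstm1, Osgin1, Abcc1, Cat, Sod1 and Sod2. All 10 are among the 47729 genes of the deposited count table, and all 10 passed the filter on low counts, which kept 13732 genes for testing.

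CD4+ T cells of C57BL/6 mice were differentiated in culture towards induced regulatory T cells (iTreg cells) with TGF-β, IL-2 and antibodies to IL-4 and IFN-γ, and this medium was common to both groups. One group received 50 µM FeSO4 for 4 days and the other received PBS for 4 days (Mock), with 2 libraries in each group. The labels name spleen as the tissue, whereas the methods take naive cells from spleen and lymph nodes and activate them with anti-CD3 and anti-CD28. The culture medium of the study also held β-mercaptoethanol, a reducing agent, in both groups. The study used age-matched mice of 6 to 8 weeks, and how many gave cells to each library was not given in the sources used here. The methods speak of pairs from independent experiments without saying which libraries formed a pair, so the p-values measure the spread between these 4 libraries.

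In resting cells KEAP1 holds NRF2 in the cytoplasm and presents it to a CUL3 ubiquitin ligase for degradation, so that most control of NRF2 is exerted on the protein rather than on its mRNA. Oxidants and electrophiles modify KEAP1, and NRF2 then enters the nucleus, pairs with a small MAF protein and binds antioxidant response elements (ARE). BACH1 pairs with the same small MAF proteins, occupies the same class of element as a repressor, and leaves DNA when it binds heme, which ties this circuit to iron. Ferrous iron reacts with hydrogen peroxide to give hydroxyl radicals, and superoxide dismutases and catalase remove superoxide and peroxide respectively. The libraries report mRNA only, and neither the amount nor the location of any protein was measured.

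The libraries held 35183187 to 40859178 reads counted in genes, and the biological coefficient of variation between libraries of a group was 8.24%. Levels are given as CPM, counts scaled to a common library size, after TMM scaling, which sets the typical gene equal between libraries. The T cell markers were high in every library, with Cd4 at 606 to 683 CPM, the 3 NK cell markers had no read, and the B cell markers summed to at most 3.38 CPM. Foxp3, the defining factor of regulatory T cells, was at 587 and 693 CPM in the Mock libraries, against 376 and 472 CPM with FeSO4 (log2 fold change -0.60 ± 0.09 (SE), adjusted p = 0.000223). Of the other 6 T cell markers, Cd3g (log2 0.50, edgeR adjusted p = 2.04e-05) and Trac (log2 0.19, adjusted p = 0.045) rose, and 4 did not pass. In bulk RNA a smaller share of Foxp3-expressing cells and less RNA per cell cannot be told apart, and the same holds for every gene below.

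To show where the ARE core letters fall near these genes, promoter windows of RefSeq (assembly GRCm38.p6, 250 bases before to 50 bases after a listed start site) were searched on both strands for TGACNNNGC, in which N is any base. Windows were at hand for 9 of the 10 genes, and Abcc1 was not searched. The start site was the first base of the gene in 8 of the 9, while that of Osgin1 lay 11265 bases inside the gene as placed here. The letters were found in 2 of the 9 windows (22.2%), against 12.4% of all 32851 windows of that length. The 9 windows held 53.3% to 69.7% G and C, above the median of 52.7% over all windows. The share over all windows was not matched for this. Both matching stretches are printed with the core in capitals, 5′ to 3′ on the strand of the gene. In Sod1 the core is read on the opposite strand, so its reverse complement is seen.
Nfe2l2: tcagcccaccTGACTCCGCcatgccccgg
Sod1: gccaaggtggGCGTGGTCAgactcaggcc
The Nfe2l2 stretch is chr2:75704885-75704913 on the minus strand, with the core at positions -240 to -232 from the start site. The Sod1 stretch is chr16:90220696-90220724 on the plus strand, with the core at -56 to -48. No match was found in the windows of Keap1, Bach1, Nqo1, Sqstm1, Osgin1, Cat and Sod2, which says only that these letters are not in those windows.

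Other known NRF2 target genes were searched too, and 8 of the 18 with a window held the core. These 18 genes have 25 windows, of which 8 held it (32.0%). The 4 matches among the target genes named below are printed for comparison, each with the core on the strand opposite to the gene.
Gclm: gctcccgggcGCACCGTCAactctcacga
Txnrd1: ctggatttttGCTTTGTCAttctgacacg
Srxn1: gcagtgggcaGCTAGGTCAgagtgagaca
Prdx1: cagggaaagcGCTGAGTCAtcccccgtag
These stretches are chr3:122245413-122245441, chr10:82859104-82859132, chr2:152105542-152105570 and chr4:116685456-116685484, all on the plus strand of GRCm38.p6. The core lies before the start in Gclm (-134 to -126), Txnrd1 (-92 to -84) and Prdx1 (-133 to -125), and after it in Srxn1 (29 to 37). For Txnrd1 this is a start site 25255 bases inside the gene, and for Gclm one 70 bases inside. A related element, TGANTCA, which binds AP-1 and is matched by the Prdx1 stretch, was searched after the first motif had been read. Among the 9 windows only that of Osgin1, at its internal start site, held it, against 7.81% of all windows.

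The comparison of FeSO4 with Mock asked whether added iron changed transcript levels of this circuit in iTreg cells. Of the 10 genes, 6 rose and none fell at an adjusted p under 0.05 (edgeR quasi-likelihood test, Benjamini-Hochberg over all 13732 genes). The 6 were Nfe2l2, Keap1, Nqo1, Abcc1, Cat and Sod2, while Bach1, Sqstm1, Osgin1 and Sod1 did not pass. Over all tested genes 20.0% passed in either direction, 10.9% as higher and 9.17% as lower in FeSO4. These were 1491 higher and 1259 lower genes, against 980 higher and 1810 lower with scaling by library size alone. In 9 of the 10 genes both FeSO4 libraries lay above both Mock libraries, and the exception was Bach1. Of all tested genes 59.5% had groups without overlap, with the FeSO4 libraries above in 30.1%. The median log2 fold change of the 10 genes was 0.22, against -0.0005 over all tested genes. The differences were small, from a factor of 1.07 for Sqstm1 to a factor of 1.67 for Nqo1 among the 9.

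How many of the 10 passed depended on the fit. The count was 6 with the newer edgeR dispersion estimate, which was adopted after the values of both estimates had been seen, and 5 with the older one, under which Sod2 had an adjusted p of 0.056. DESeq2 gave 3 and limma-voom gave 5. Scaling by library size alone, which moved the median of all genes by a log2 of -0.065, gave 3, and under it 35.1% of all calls were higher rather than 54.2%. Leaving out 1 library gave 4 without either Mock library, 2 without FeSO4 replicate 1 and 3 without FeSO4 replicate 2. Only Nfe2l2 passed in all 13 alternative fits, and no gene of the 10 passed as lower in any of them.

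**Figure D1:**
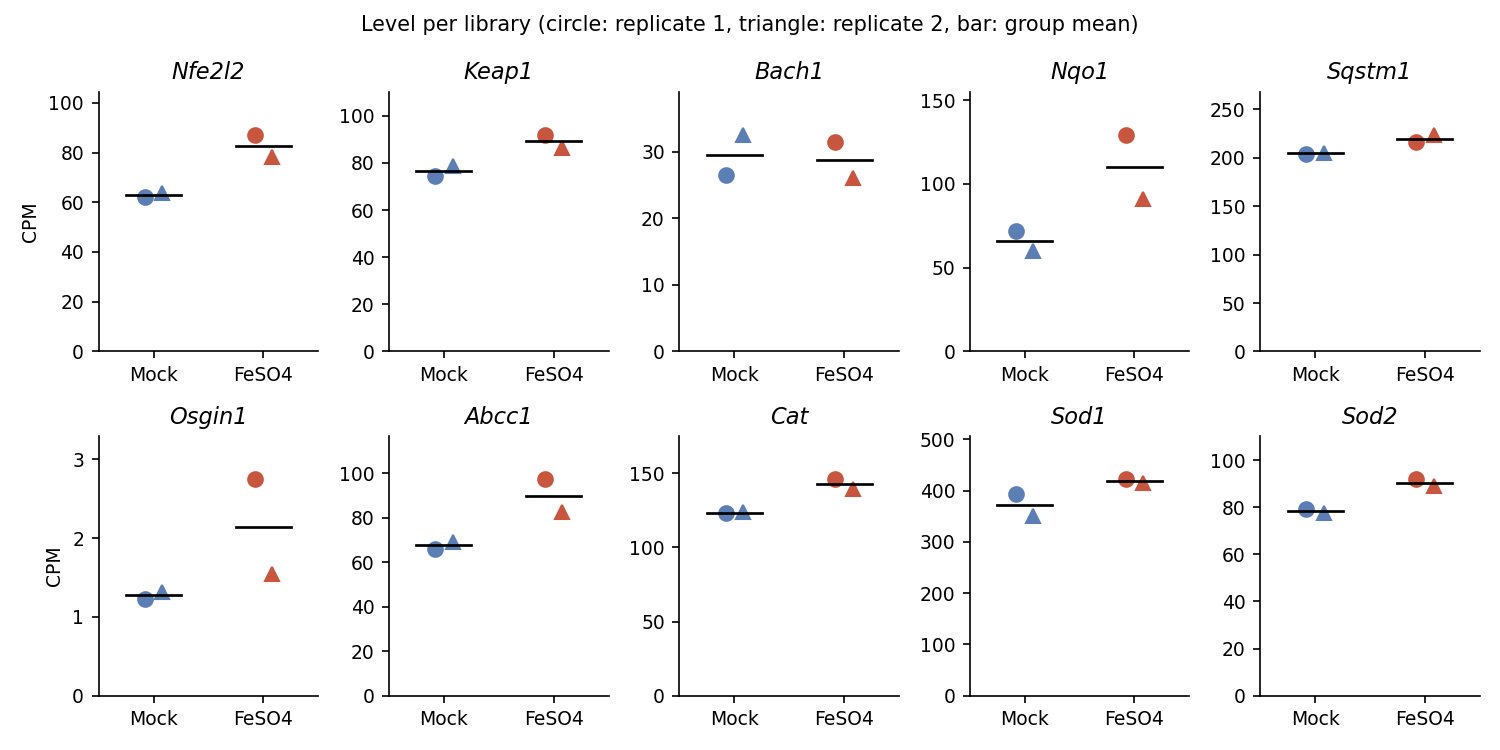
Level of each of the 10 genes in CPM (vertical axes, linear and starting at 0) in the 2 Mock libraries (blue) and the 2 FeSO4 libraries (red), with the group mean as a bar; circles are replicate 1 and triangles replicate 2. The groups overlap only for Bach1, and relative to their level (the log2 gap) the 2 FeSO4 libraries stand furthest apart for Osgin1 and Nqo1.

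Among the regulators, Nfe2l2 itself rose. Nfe2l2 (ENSMUSG00000015839; chromosome 2, 75675513 to 75704663, GRCm38.p6), which encodes NRF2, was at 61.96 and 63.8 CPM in the Mock libraries and at 87.0 and 78.3 CPM with FeSO4. Both FeSO4 libraries were above both Mock libraries, and FeSO4 replicate 1 was the highest. The fold change was 1.31 (log2 0.39 ± 0.08 (SE), 95% interval 0.23 to 0.56, n = 2 libraries per group), with an edgeR adjusted p of 0.00199. Under the 13 alternatives its log2 fold change ranged from 0.32 to 0.47 and its adjusted p from 0.000302 to 0.0499, the highest being the fit over every gene with at least 1 count.

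Keap1 (ENSMUSG00000003308; chromosome 9, 21229730 to 21239332) encodes the adaptor through which NRF2 is destroyed. It was at 74.4 and 78.5 CPM in the Mock libraries, against 91.8 and 86.5 CPM with FeSO4, without overlap. Its difference was a log2 fold change of 0.22 ± 0.07 (SE), with an edgeR adjusted p of 0.0426, and it passed in 6 of the 13 alternatives (adjusted p 0.0207 to 0.282). With 1 library left out it passed only without Mock replicate 2 (log2 0.27), and was at 0.18 without Mock replicate 1 or FeSO4 replicate 1 and at 0.27 without FeSO4 replicate 2. A gene model on the opposite strand, Gm16754, shares 510 exonic bases with Keap1 and had 0 counts in all libraries.

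Bach1 (ENSMUSG00000025612; chromosome 16, 87698954 to 87733346) encodes the heme-binding repressor of ARE genes. It was at 26.6 and 32.5 CPM in the Mock libraries, against 31.5 and 26.0 CPM with FeSO4. The highest value was that of Mock replicate 2 and the lowest that of FeSO4 replicate 2, with the other 2 libraries crossed between them, so the groups overlapped. The log2 fold change was -0.04 ± 0.12 (SE), with a 95% interval from -0.29 to 0.21 and an adjusted p of 0.851 in edgeR, so that changes within this interval were not resolved by these libraries. Its sign turned without Mock replicate 2 (log2 0.12) and without FeSO4 replicate 2 (log2 0.10).

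The balance between activator and repressors was read as a ratio of counts within each library, which does not depend on the scaling between libraries. The ratio of Nfe2l2 to Keap1 was 0.833 and 0.813 in Mock and 0.948 and 0.904 in FeSO4. That of Nfe2l2 to Bach1 was 2.33 and 1.96 in Mock and 2.76 and 3.01 in FeSO4. Each FeSO4 library exceeded each Mock library in both ratios, but with 2 libraries a group no exact test of a single ratio can pass an ordinary threshold, and they are given as a description. The ratio of Nqo1 to Nfe2l2, at 1.16 and 0.937 in Mock and 1.48 and 1.16 in FeSO4, met at 1.16 in 1 library of each group.

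**Figure D2:**
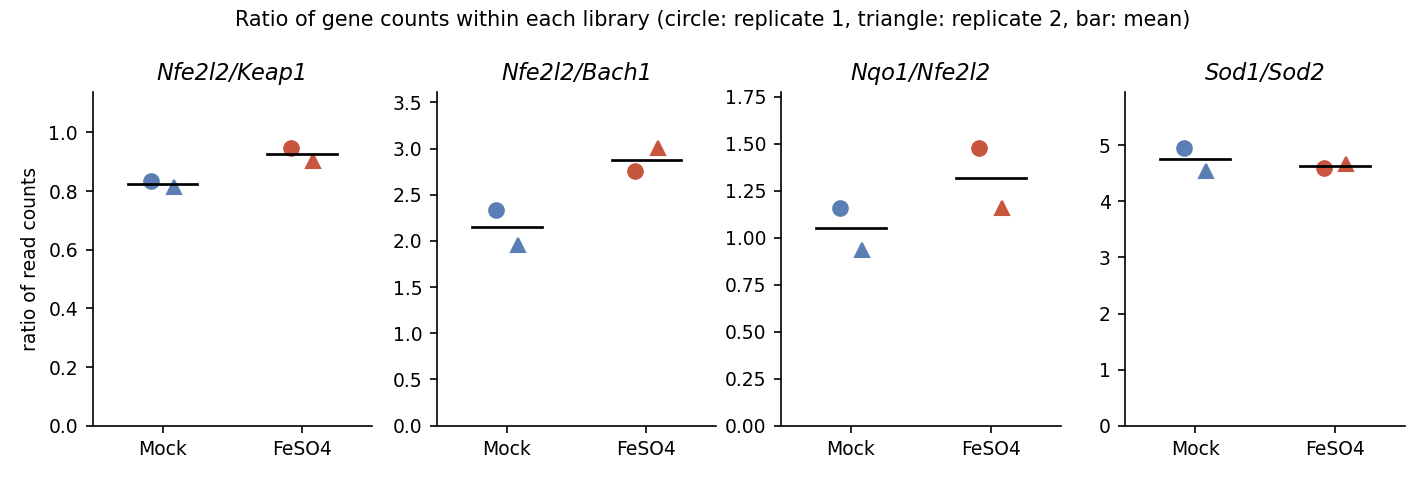
Ratio of read counts between pairs of the genes within each library (vertical axes, no unit, starting at 0; not corrected for gene length), with the mean of the 2 libraries of a group as a bar. Nfe2l2 over Keap1 and Nfe2l2 over Bach1 have every red point above every blue point, while Sod1 over Sod2 stays between 4.54 and 4.96 in the 4 libraries.

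Partners and relatives of NRF2 and BACH1 and factors of their turnover made a list of 16 genes, of which 14 were tested, 2 rose and 3 fell (35.7% called, against 20.0% of all tested genes), with a median log2 fold change of -0.09. Mafg, a small MAF partner of both factors, rose by a log2 fold change of 0.24 (edgeR adjusted p = 0.0413). Its exons share 619 bases with Sirt7 and another Mafg gene model on the same strand, which together had 16471 counts. Rbx1, the RING subunit of the CUL3 ligase, rose by 0.31 (adjusted p = 0.00848). Mafk, another small MAF, fell (log2 -0.40, adjusted p = 0.0109), as did Dcaf11, a ligase substrate receptor that acts on NRF2 (log2 -0.23, adjusted p = 0.041). Cul3 itself had a log2 fold change of 0.13 and did not pass (adjusted p = 0.173). These calls were not stable to leaving out 1 library. Mafg passed only without Mock replicate 1 and was at 0.16 without Mock replicate 2 (adjusted p = 0.247), Mafk was at -0.29 without Mock replicate 2 (adjusted p = 0.105) and at -0.25 without FeSO4 replicate 2 (adjusted p = 0.164), Rbx1 did not pass without Mock replicate 2 (adjusted p = 0.0664), and Dcaf11 passed only without Mock replicate 1. Cul3 was at 0.08 without Mock replicate 1 (adjusted p = 0.503), at 0.18 without Mock replicate 2 (adjusted p = 0.115) and at 0.06 with library size alone (adjusted p = 0.522).

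The largest difference in that list was in Bach2, the relative of BACH1 that acts as a repressor in T cells and B cells and supports regulatory T cells. Bach2 was at 55.9 and 65.9 CPM in the Mock libraries, against 30.8 and 40.7 CPM with FeSO4, without overlap. It fell to 0.588 of the Mock level (log2 -0.77 ± 0.11 (SE), edgeR adjusted p = 0.000158). It passed as lower in 12 of the 13 alternatives, whereas Bach1 passed in none.

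Among the effector genes, Nqo1 and Osgin1 had the largest differences, and of the pair only Nqo1 passed the test. Nqo1 (ENSMUSG00000003849; chromosome 8, 107388225 to 107403205) encodes a quinone reductase that is widely used as a readout of NRF2 activity. It was at 72.1 and 59.8 CPM in the Mock libraries, against 129 and 90.9 CPM with FeSO4. The groups did not overlap, but FeSO4 replicate 1 stood well above FeSO4 replicate 2. The fold change was 1.67 (log2 0.74 ± 0.12 (SE), 95% interval 0.48 to 0.99), with an edgeR adjusted p of 0.000465. DESeq2 gave an adjusted p of 0.0509, edgeR with every gene of at least 1 count gave 0.0836, and the other 11 alternatives passed. Its log2 fold change was 0.47 when FeSO4 replicate 1 was left out, and was 0.97 when FeSO4 replicate 2 was.

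Nqo1 was also the only one of the 10 genes to pass the threshold used in the study, an unadjusted p under 0.05 together with a log2 fold change of 0.5 or more in size. Of all tested genes 10.4% passed it, 4.67% as higher and 5.73% as lower. Without FeSO4 replicate 1 no gene of the 10 passed it, and without FeSO4 replicate 2 there were 3.

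Abcc1 (ENSMUSG00000023088; chromosome 16, 14361453 to 14474878), which encodes a membrane pump for glutathione conjugates and oxidised glutathione, was at 66.1 and 69.1 CPM in the Mock libraries, against 97.2 and 82.5 CPM with FeSO4. Both FeSO4 libraries were above both Mock libraries. The log2 fold change was 0.41 ± 0.08 (SE), with an edgeR adjusted p of 0.00236. It passed in 11 of the 13 alternatives, and without FeSO4 replicate 1 the value was 0.29 (adjusted p = 0.0542).

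Osgin1 (ENSMUSG00000074063; chromosome 8, 119425882 to 119446257), an oxidative stress-induced growth inhibitor, was the least abundant of the 10, with 50 and 55 reads in Mock and 94 and 57 reads in FeSO4. These counts correspond to 1.23 and 1.32 CPM in Mock, and to 2.74 and 1.54 CPM with FeSO4. Its log2 fold change of 0.73 ± 0.37 (SE) was close to that of Nqo1, but the 95% interval ran from -0.05 to 1.51 and the edgeR adjusted p was 0.183. FeSO4 replicate 1 carried most of the difference, since the log2 value was 0.28 without it and 1.11 when FeSO4 replicate 2 was left out. The gene passed in none of the 13 alternatives.

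Sqstm1 (ENSMUSG00000015837; chromosome 11, 50200152 to 50210820) encodes p62, an autophagy receptor that is both a target of NRF2 and a competitor for its binding site on KEAP1. It was at 204 and 205 CPM in the Mock libraries, against 216 and 223 CPM with FeSO4. The groups did not overlap, yet the log2 fold change was 0.10 ± 0.06 (SE), with a 95% interval of -0.03 to 0.23 and an edgeR adjusted p of 0.27. The log2 fold changes of Nfe2l2 and Nqo1, 0.39 and 0.74, lie above this interval. The 95% interval of Nfe2l2 starts at 0.228, below the upper end for Sqstm1 of 0.234. Differences between the genes were not tested. Its exons share 580 bases with 3010026O09Rik on the opposite strand, which had 685 counts in all 4 libraries together, and no setting for strand was given in the sources used here.

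**Figure D3:**
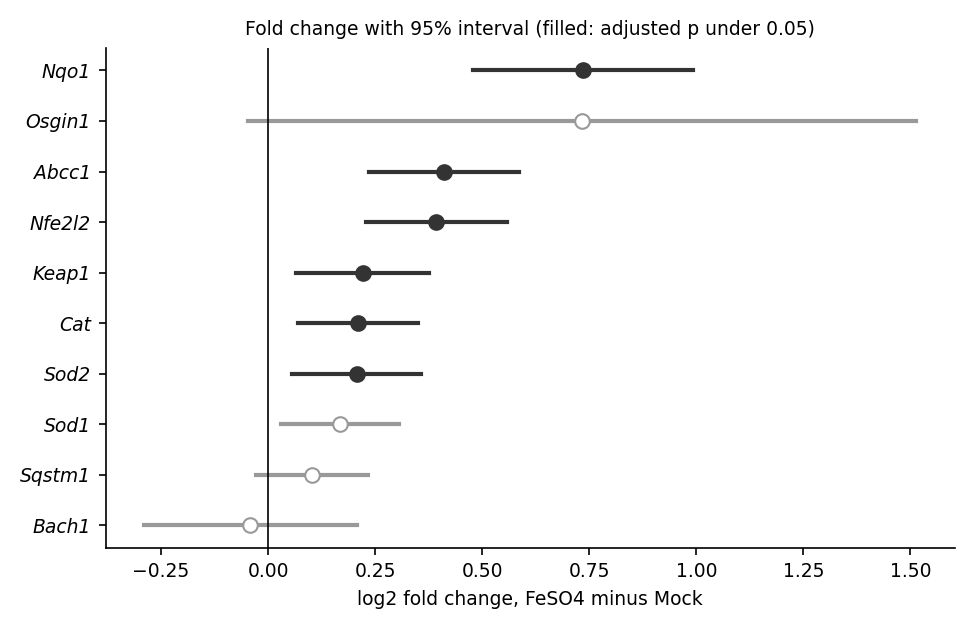
Log2 fold change of FeSO4 over Mock for the 10 genes (horizontal axis) with the 95% interval of the edgeR fit, ordered by size; filled points have an adjusted p under 0.05 and open points do not. Nqo1 and Osgin1 have nearly the same estimate, 0.74 and 0.73, but the interval of Osgin1 is far wider and reaches below 0.

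The superoxide dismutases and catalase had log2 fold changes of 0.17 to 0.21. Cat (ENSMUSG00000027187; chromosome 2, 103453904 to 103485153), catalase, was at 123 and 124 CPM in the Mock libraries, against 146 and 140 CPM with FeSO4, without overlap. It rose by a log2 fold change of 0.21 ± 0.07 (SE), with an edgeR adjusted p of 0.0338, and 6 of the 13 alternatives passed (adjusted p 0.0133 to 0.239). It did not pass when any 1 of the 4 libraries was left out, at log2 fold changes of 0.18 to 0.25.

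Sod1 (ENSMUSG00000022982; chromosome 16, 90220762 to 90226333), the copper and zinc superoxide dismutase of the cytosol, was at 393 and 352 CPM in the Mock libraries, against 422 and 414 CPM with FeSO4. The Mock libraries stood further apart than the FeSO4 libraries, and the higher of them was still below both. The log2 fold change was 0.17 ± 0.07 (SE), and the edgeR adjusted p of 0.0797 missed the threshold, and the value moved with the Mock library left out. It was 0.24 without Mock replicate 1 (adjusted p = 0.0175) and 0.09 without Mock replicate 2 (adjusted p = 0.389). With library size alone it was 0.10 (adjusted p = 0.28). With the replicate number taken as the pair, as a block in the fit, Sod1 passed (adjusted p = 0.0248).

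Sod2 (ENSMUSG00000006818; chromosome 17, 13007839 to 13018119), the manganese superoxide dismutase of mitochondria, was at 79.1 and 77.4 CPM in the Mock libraries, against 91.7 and 88.9 CPM with FeSO4. The libraries of each group lay close together and the groups did not overlap. The log2 fold change was 0.21 ± 0.07 (SE). Its edgeR adjusted p of 0.04999 was at the threshold, and only 2 of the 13 alternatives passed, none of them with a library left out (log2 0.19 to 0.23), so that Sod2 is the least settled of the 6. The ratio of Sod1 to Sod2 counts was 4.96 and 4.54 in Mock and 4.6 and 4.66 in FeSO4, with overlap.

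Red blood cell precursors are rich in catalase and SOD1, and 1 marker of that lineage moved in the same direction. Hba-a1, a globin gene, was at 24.5 and 19.6 CPM in the Mock libraries, against 37.5 and 32.5 CPM with FeSO4 (log2 0.66, edgeR adjusted p = 0.000731). Of the 5 erythroid markers only Hba-a1 was tested. Slc4a1 had no read in any library. Alas2 had 16 and 6 reads in Mock, against 4 and 6 with FeSO4. Hbb-b1 had 12 reads in Mock replicate 1 and none elsewhere. The summed level of the 5 was 19.8 to 25.2 CPM in Mock, against 32.6 to 37.6 CPM with FeSO4. Nearly all of this sum was Hba-a1 in every library, so it says little of the other markers. The part of red blood cell precursors in the values of Cat and Sod1 was not tested. The 7 myeloid markers summed to 7.52 and 3.16 CPM in Mock, against 2.74 and 2.73 CPM with FeSO4, led in Mock replicate 1 by Lyz2 with 164 reads.

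Other enzymes of superoxide and peroxide, with the copper chaperone of SOD1, made a list of 12 genes, of which 10 were tested, 2 rose and none fell, with a median log2 fold change of 0.17. The share called, 20%, was that of all tested genes (20.0%). The 2 were the peroxiredoxins Prdx4 of the endoplasmic reticulum (log2 0.49, edgeR adjusted p = 0.000142) and Prdx3 of mitochondria (log2 0.29, adjusted p = 0.0101). Ccs, which loads copper into SOD1, had a log2 fold change of 0.04 (adjusted p = 0.772). On the side that makes superoxide, 6 genes of the NADPH oxidase were tested, while Cybb, the catalytic subunit, had 4 reads in each Mock library and none with FeSO4 and was not tested. Cyba rose (log2 0.31, adjusted p = 0.00369) and Ncf1 fell (log2 -0.38, adjusted p = 0.00372), so that 33.3% of the 6 were called. Without FeSO4 replicate 1 Cyba had an adjusted p of 0.0638, and without FeSO4 replicate 2 Prdx3 had one of 0.0536. With the replicate number as a block 4 genes of the first list and 2 of the NADPH oxidase rose.

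Known NRF2 target genes outside the 10 made a list of 23, of which 21 were tested, 13 rose and 1 fell, against 10.9% higher and 9.17% lower over all tested genes, with a median log2 fold change of 0.36. Srxn1, which restores over-oxidised peroxiredoxins, had the largest fold of those that rose. It was at 1.82 and 2.06 CPM in the Mock libraries, against 6.77 and 6.05 CPM with FeSO4, a factor of 3.29 (log2 1.72 ± 0.24 (SE), edgeR adjusted p = 0.000109), and it passed in all 13 alternatives. The other 3 of smallest p were Txn1 (thioredoxin), Prdx1 and Tkt (transketolase), at log2 fold changes of 0.54, 0.47 and 0.53, which also passed in all 13. Gclm, a subunit of the enzyme that limits glutathione synthesis, rose by 0.60 (adjusted p = 0.000332). Gclc, the other subunit of that enzyme, did not pass (log2 -0.06, edgeR adjusted p = 0.647), with overlapping groups. It is named here after its value was seen. Txnrd1, thioredoxin reductase, rose by 0.30 (adjusted p = 0.0141). Txnrd1 did not pass without FeSO4 replicate 1 (log2 0.15, adjusted p = 0.332) or without Mock replicate 1 (adjusted p = 0.0529).

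Hmox1, the heme oxygenase gene well known to be repressed by BACH1, was at 9.27 and 9.30 CPM in the Mock libraries, against 16.4 and 13.4 CPM with FeSO4. It rose by a log2 fold change of 0.68 ± 0.15 (SE), with an edgeR adjusted p of 0.00382, which was 0.0524 without FeSO4 replicate 1. Slc7a11, the cystine transporter, had 9 and 3 reads in Mock and 18 and 6 reads in FeSO4 and was not tested. Ephx1, an epoxide hydrolase, was the 1 gene of the list that fell (log2 -0.58, adjusted p = 0.0195), and it is named here after its value was seen. No gene of the list passed as lower without Mock replicate 2, without FeSO4 replicate 1 or with every gene of at least 1 count tested. The count of 13 that rose became 6 without FeSO4 replicate 1.

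Relatives of Sqstm1, Nqo1 and Abcc1 had medians near or below 0. Of 9 tested autophagy receptors and LC3 or GABARAP genes, Gabarapl1 rose (log2 0.32, edgeR adjusted p = 0.0334) and Calcoco1 fell (log2 -0.54, adjusted p = 0.000655), with a median of -0.06. The share called was 22.2%, near the 20.0% of all tested genes. Gabarapl1 passed with 1 library left out only without FeSO4 replicate 2, and was at 0.19 without FeSO4 replicate 1 (adjusted p = 0.378). Of 7 tested reductases and ABCC transporters none rose and Abcc5 fell (log2 -0.39, adjusted p = 0.00995), 14.3% called, with a median of -0.14, and Abcc5 did not pass without Mock replicate 1 (adjusted p = 0.0568) or FeSO4 replicate 1 (adjusted p = 0.114).

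**Figure D4:**
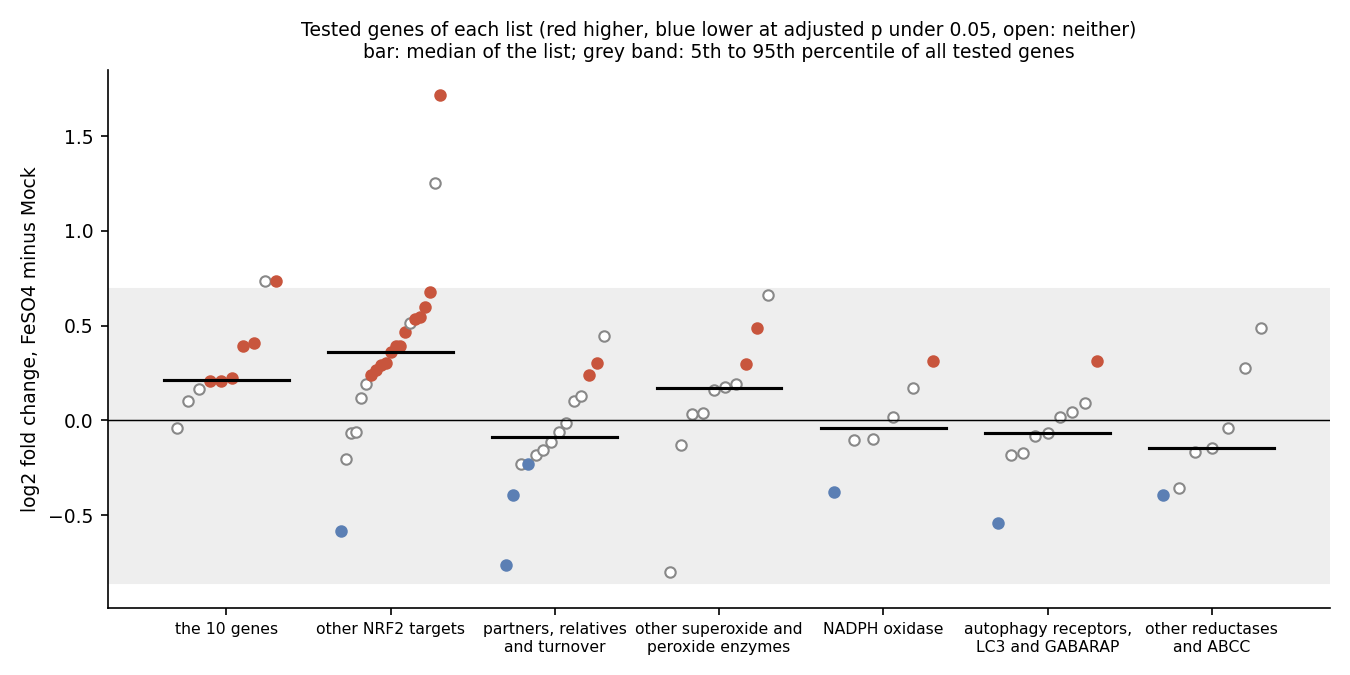
Log2 fold change of FeSO4 over Mock (vertical axis) for the tested genes of each list, with the list's median as a bar; red and blue points rose and fell at an adjusted p under 0.05, open points did neither, and the grey band spans the 5th to the 95th percentile of all tested genes (-0.86 to 0.69). The 10 genes, the other NRF2 targets and the superoxide and peroxide enzymes lie mostly above 0, with medians of 0.22, 0.36 and 0.17, and the other lists have medians below 0.

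FeSO4 replicate 1 gave the higher value of the 2 FeSO4 libraries in 9 of the 10 genes, all but Sqstm1. Among all tested genes this was so for 50.6%, and among the 21 tested NRF2 targets for 16. Mock replicate 1 gave the higher value of the Mock libraries in 3 of the 10 genes and in 17 of the 21 targets, so the order of the targets was not particular to the FeSO4 libraries. The gap between the FeSO4 libraries was larger than that between the Mock libraries for 8 of the 10 genes, for 15 of the 21 targets and for 6852 of the 13732 tested genes. The gap was widest for Osgin1, at 0.82 on the log2 scale, and for Nqo1, at 0.51, while for Sod1, Sod2 and Sqstm1 it was at most 0.05.

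**Figure D5:**
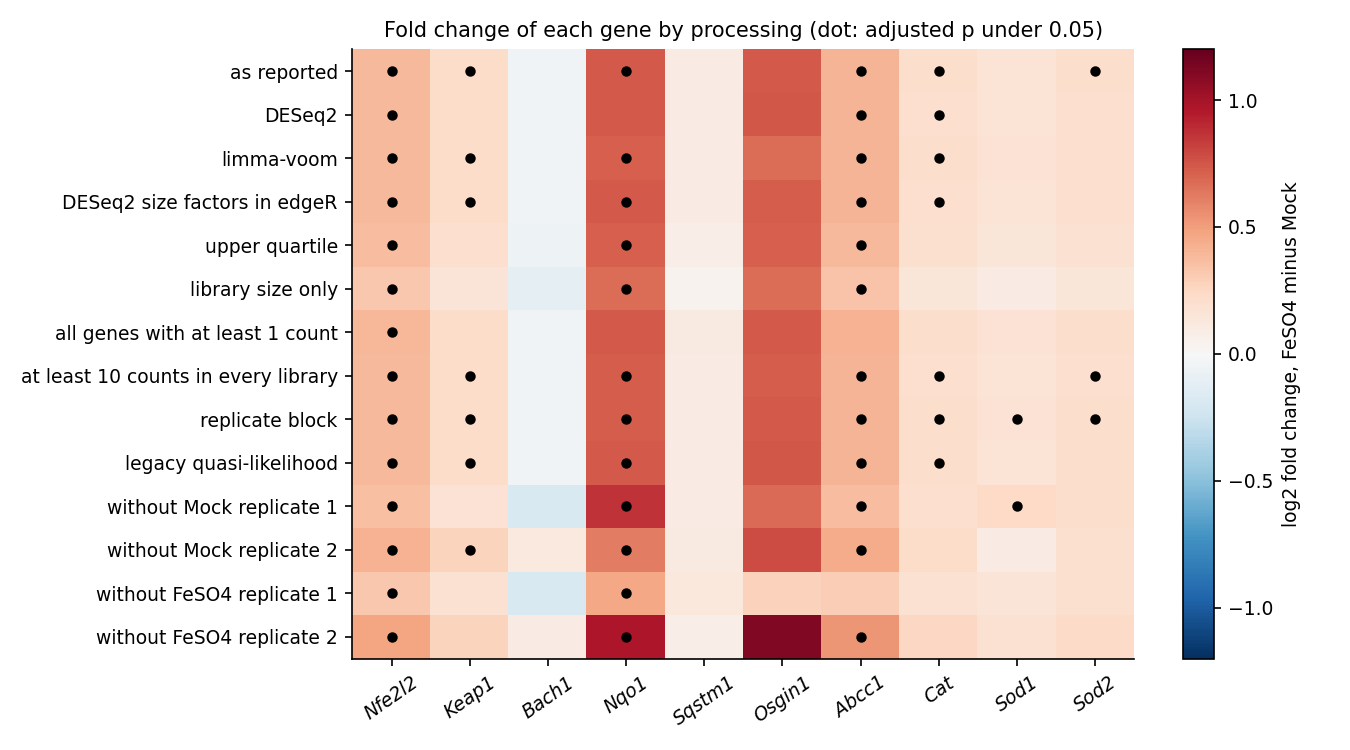
Log2 fold change of each of the 10 genes (colour) in the fit as reported and in 13 alternatives (rows), with a dot where the adjusted p was under 0.05. Only Nfe2l2 has a dot in each row, Bach1, Sqstm1 and Osgin1 have none, and the row without FeSO4 replicate 1 has 2 dots.

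Levels were compared between genes only after division by the length of the exons. Sod1 was by far the most abundant, at a mean of 576 CPM per kilobase in Mock and 647 in FeSO4. Sqstm1 (61.0 and 65.5), Cat (47.2 and 54.6) and Nqo1 (42.5 and 70.8) followed in Mock. With FeSO4 the order of Nqo1 and Sqstm1 differed between the libraries, Nqo1 being above in replicate 1 (83.1 against 64.4) and below in replicate 2 (58.5 against 66.5). Sod2 (20.5 and 23.6), Keap1 (17.1 and 19.9) and Nfe2l2 (16.6 and 21.8) formed a middle group in which the order of Keap1 and Nfe2l2 turned between Mock and FeSO4. Abcc1 (5.46 and 7.27) and Bach1 (4.78 and 4.66) were lower, and Osgin1 (0.476 and 0.801) was the lowest. These levels were compared without a test, and the exon lengths come from an annotation of an older assembly.

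The genes whose pattern over the 4 libraries was most like that of Nqo1, by the distance of centred log2 CPM among 8437 genes, were Akr1c12 at 0.07, 2010002N04Rik at 0.12 and St6galnac6 at 0.14. Only 5 genes lay within 0.2 of Nqo1. The levels were centred but not scaled, so this number depends on the size of the changes as well as on their pattern. For Nfe2l2 the nearest were Fam60a, Sept11 and Ccdc41 at 0.01 to 0.03, but 855 genes lay within 0.2, so that a likeness to Nfe2l2 over 4 libraries singles out little.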

How the data were processed

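RNA-seq of 4 libraries was used, 2 of iTreg cells given 50 µM FeSO4 and 2 of Mock. The authors deposited 1 table of raw read counts per gene. The submitters' processing notes name Trim Galore 0.6.7, STAR 2.7.9a, featureCounts and mm10, whereas the methods of the study name mm9 and the unassigned rows carry the names that htseq-count uses, so the build and counter are not settled. Those rows were left out: per library 4.36% to 6.03% of all reads in the table lay outside genes, 3.78% to 3.91% were ambiguous and 4.27% to 4.62% had no unique alignment. Symbols were matched to 32799 of 47729 gene IDs, and IDs without one held 0.755% of the counts.

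Counts were tested with edgeR 4.0.16 (R 4.3.3): filterByExpr by group, TMM scaling, and the quasi-likelihood test of FeSO4 against Mock over 13732 genes with Benjamini-Hochberg adjustment. The fit was first run with edgeR's older dispersion estimate and then switched to the newer one after the values had been seen, which moved Sod2 past the threshold. Log2 levels of single libraries, used for gaps and likeness, add 1 read to each count. DESeq2 1.42.0, limma-voom 3.58.1 and other scalings, filters and left-out libraries were alternatives. The fit was tested on simulated data with known changes under both dispersion estimates. A count of 3 reads corresponds to 0.0717 to 0.0876 CPM. The 95% intervals of fold changes come from the edgeR fit and include the spread between libraries.

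The 10 genes and all lists were chosen with earlier results of these data known. Named are the 10 genes, of each list up to 4 genes of smallest p among those at an adjusted p under 0.05, and Hmox1, Txnrd1, Srxn1, Gclm, Slc7a11, Mafg, Cul3 and Ccs. Likeness was taken among 8437 of the 8522 tested genes averaging 10 CPM or more. Gene positions and promoter windows are those of RefSeq on GRCm38.p6, and exon lengths are from an mm9 annotation matched by gene ID. Protein sequences were not analysed here. The values of 1 erythroid marker are not reported here.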

Additional observations from a re-analysis of the deposited data

How the results depend on the processing

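The counts of calls and the fold changes of the tested genes named by rule were recomputed in 13 alternatives. Of these 12 were planned, and the last is the older edgeR dispersion estimate, which was run first and replaced by the newer one after seeing the data. Foxp3, Cd3g, Trac, Hba-a1, Ephx1, Gclc, the ratios, the likeness and the order of libraries were not recomputed. The 10 genes passing as higher, 6 as reported, were 3 with DESeq2, upper quartile scaling or library size alone, 1 with every gene of at least 1 count tested, and 2 to 4 with 1 library left out. At the study's threshold the count of 1 became 2 with at least 10 counts in every library and ranged from 0 to 3 with 1 library left out. The methods name 2 pairs of libraries but not that the replicate numbers mark them, and deviations of same-numbered libraries correlated at 0.0258 over all tested genes and at 0.22 over those averaging 10 CPM or more. With the number as a replicate block 7 of the 10 passed (Sod1 added, adjusted p = 0.0248), as did 4 of the peroxide enzymes, 2 of the NADPH oxidase genes, and 1847 higher and 1580 lower of all genes. In that fit 14 NRF2 targets rose and 4 of the partners and relatives fell. Over all genes the 1491 higher became 980 with library size alone, 524 with every gene of at least 1 count and 893 to 1199 with 1 library left out, and the 1259 lower became 1810, 304 and 710 to 1158 in the same settings.

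Of the lists, the NRF2 targets that rose, 13 as reported, were 5 with every gene of at least 1 count and 6 to 14 with 1 library left out, and the 1 that fell was 0 in the former and 0 to 1 in the latter. With every gene of at least 1 count, 0 partners and relatives rose and 0 fell, 1 peroxide enzyme rose, and 0 passed in the NADPH oxidase, autophagy or reductase and ABCC lists. With library size alone 1 partner rose and 5 fell, 1 peroxide gene fell, 0 autophagy genes rose and 2 fell, and 2 of the reductase and ABCC list fell. The 2 partners that rose were 1 with DESeq2 or upper quartile scaling, and the 1 autophagy gene that rose was 0 with DESeq2. With 1 library left out the ranges were 1 to 2 higher and 1 to 4 lower for partners, 1 to 3 higher for peroxide enzymes, 0 to 1 higher for NADPH oxidase and for autophagy genes, and 0 to 1 lower for the reductases and ABCC genes. The log2 fold change of Bach1 ranged from -0.185 to 0.116 with 1 library left out, positive without Mock replicate 2 and without FeSO4 replicate 2 (0.0964), and that of Ccs from -0.0447 (without FeSO4 replicate 2) to 0.126, with -0.0246 for library size alone. The cause was not tested.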
